A study of Mus musculus with 9 samples.

Results

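The genes described here carry names that end in Rik, the mark of a mouse cDNA clone from the RIKEN collection that had received no functional symbol in the annotation used. Of 52405 entries in the deposited table, 2970 had such a name, and 1310 of those stood at 0 in every library. Members were the 69 entries with this kind of name and a mean of at least 10 FPKM over the 9 libraries. FPKM, a fragment rate scaled to transcript length and library size, is a level per length. The members were thus selected on their mean level over all libraries, so their levels are a description. The differences between groups were not a criterion, but the bound is not independent of them for members near it. A group mean fell under 10 FPKM in 13 members, 4 of which were called in a comparison with males (9030619P08Rik, 1700016C15Rik, 2510002D24Rik and 1300002E11Rik).

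RNA came from C57BL/6 mice in 3 groups of 3 libraries each. These were males after a sham operation, females after a sham operation and females after removal of the ovaries (ovariectomy). Both female groups had surgery on postnatal day 21. For the males the labels state no day of surgery. No castrated males and no hormone treatment were analysed here. Cells of the kidney cortex were held on a magnetic column by an antibody against prominin-1, a membrane protein of the proximal tubule brush border, and the labels name them proximal tubule. The labels call the libraries biological replicates without saying whether each came from 1 animal, so p-values measure the spread between these libraries.

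The proximal tubule reabsorbs most of what the glomerulus filters, burns fatty acids in mitochondria and peroxisomes for this work, and is known in mice for a large difference in gene expression between the sexes. A Rik name says nothing about function. Some such genes have since been assigned proteins of cilia, lipid transfer or mitochondria, some are long noncoding RNAs, and some are pseudogenes, which are copies that have lost the reading frame of the parent gene.

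By the GENCODE M21 annotation of mouse build GRCm38, 49 members encode a protein, 17 are noncoding RNA genes and 3 are pseudogenes. They lie on 19 chromosomes. In the RefSeq table of build GRCm38.p6, 64 of the 69 still had the same symbol. There 1810026B05Rik is Chaserr, a long noncoding RNA that in mouse restrains the neighbouring chromatin remodeller gene Chd2. Likewise 2900097C17Rik is Norad, a noncoding RNA that binds Pumilio proteins, and B230118H07Rik is Iftap, an intraflagellar transport-associated protein. The proteins of the coding members were short. Their longest annotated protein had a median of 191 residues, against 403 residues for the 5922 other coding genes with a mean of at least 10 FPKM. Proteins of at most 200 residues belonged to 25 of the 49 members (51.0%) and to 1026 of the other genes (17.3%). The range ran from 59 residues to the 5005 residues of 4932438A13Rik, whose human counterpart is the bridge-like lipid transfer protein BLTP1.

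Promoters are shown for 3 called members, chosen with their values known. 1700016C15Rik and 2310030G06Rik were lower in both female groups than in males under every setting tried. 1300002E11Rik was called lower in the sham-operated females, a call lost in 7 of 16 alternatives. The sequences are the 250 bases before the RefSeq start site, build GRCm38.p6, written along the gene's own strand. Capitals mark a match to the cyclic AMP response element TGACGTCA.
1700016C15Rik, chr1:177729564-177729813, plus strand: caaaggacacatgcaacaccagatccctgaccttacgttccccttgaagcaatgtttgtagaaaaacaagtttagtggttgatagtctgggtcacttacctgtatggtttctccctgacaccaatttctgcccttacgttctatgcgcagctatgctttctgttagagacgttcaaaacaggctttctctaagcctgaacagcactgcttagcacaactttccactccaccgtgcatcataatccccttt
2310030G06Rik, chr9:50746528-50746777, minus strand: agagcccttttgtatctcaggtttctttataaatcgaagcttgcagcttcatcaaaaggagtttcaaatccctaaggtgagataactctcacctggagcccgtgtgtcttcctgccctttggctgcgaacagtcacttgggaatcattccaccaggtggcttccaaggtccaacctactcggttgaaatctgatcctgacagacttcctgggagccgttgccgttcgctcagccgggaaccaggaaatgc
1300002E11Rik, chr16:21794097-21794346, plus strand: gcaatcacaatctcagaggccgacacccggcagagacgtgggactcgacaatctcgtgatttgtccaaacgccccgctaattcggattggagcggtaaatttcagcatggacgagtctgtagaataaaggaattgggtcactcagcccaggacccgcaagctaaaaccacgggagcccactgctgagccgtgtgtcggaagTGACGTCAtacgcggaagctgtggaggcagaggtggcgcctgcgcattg
RefSeq promoters were found for 54 of the 69 members, and 7 motifs were searched on both strands. TGACGTCA occurred before 1300002E11Rik, 3830406C13Rik and 9530068E07Rik, and before 1.55% of all 32851 promoters in the table. The window before 1300002E11Rik ends at the start of Map3k13 on the same strand. The match thus also lies before Map3k13, which was called in no comparison. 0610005C13Rik, called in both comparisons with males, had no match to any of the 7 motifs and is not shown. The estrogen response element, GGTCA and TGACC with 3 bases between them, was found before 0.0639% of all promoters and before no member. The androgen response element, GNACA and TGTNC with 3 bases between them, was found before 0.387% of all promoters and before no member. The letters TTCNNNGAA, a STAT5 site, were found before 7.02% of all promoters and before 6 members, none of them called in any comparison. The E-box CACGTG was found before 6.02% of all promoters and before 9 members, also none of them called. With 13 of all 69 members called in some comparison, the absence of calls among so few members says little. The PPAR direct repeat, AGGTCA repeated after 1 base, and the HNF1 site, GTTAAT and ATTAAC with 1 base between them, were found before 0.0335% and 0.00913% of all promoters and before no member. A match or its absence describes these letters in this window only.

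The members differed widely in level. The lowest value of any member in any library was 6.33 FPKM and the highest 382.94 FPKM. The median of the member means was 18.2 FPKM, 4 members had a mean over 100 FPKM, and 38 had a mean under 20 FPKM. Together they made up 0.326% to 0.356% of the FPKM sum of a library. All 69 passed the filter for testing (1 FPKM or more in 3 or more libraries), and none of them depended on 1 group to pass it.

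The most abundant member was 4833439L19Rik, the mouse counterpart of human KIAA1191, at a mean of 323.3 FPKM. Next came 4931406C07Rik, whose human counterpart C11orf54 is an ester hydrolase, at 315.5 FPKM. The third was 0610005C13Rik, a noncoding RNA, at 176 FPKM, followed by C130074G19Rik at 124 FPKM. 9530068E07Rik, a keratinocyte-associated membrane protein in human, stood at 82.59 FPKM. 2610507B11Rik, the counterpart of the human bridge-like lipid transfer protein BLTP2, stood at 72.94 FPKM. At the lower bound, 5031439G07Rik (10.17 FPKM), 1600012H06Rik (10.16) and 4932438A13Rik (10.14) fell just inside. 1110059G10Rik (9.982 FPKM), 2310011J03Rik (9.899) and D630024D03Rik (9.527) fell just outside.

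**Figure D1:**
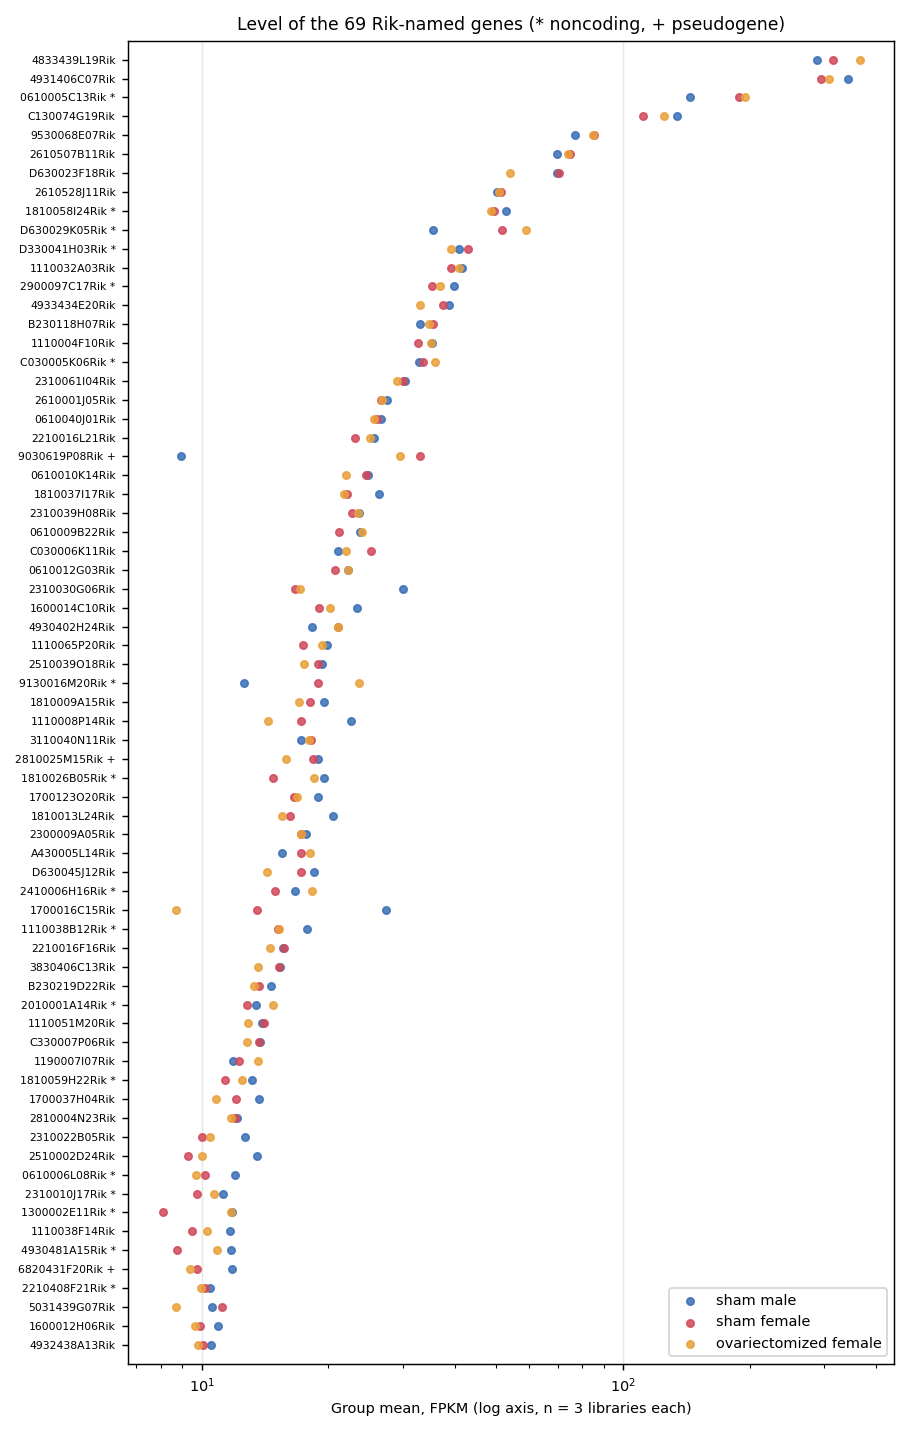
Mean FPKM of each of the 69 Rik-named genes in each group on a log axis, ordered by the mean over all 9 libraries, with noncoding genes marked by * and pseudogenes by +. For most genes the 3 group means lie close together, while the pseudogene 9030619P08Rik (8.93 FPKM in males, 33.0 in sham females) and 1700016C15Rik (27.4 against 13.6) stand apart.

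Most members varied little. The coefficient of variation over the 9 libraries had a median of 11.2%, against 10.6% for all tested genes with a mean of at least 10 FPKM. It was under 10% for 27 members and over 20% for 10. The steadiest was B230219D22Rik (4.98%) and the most variable was 1700016C15Rik (53.4%), followed by 9030619P08Rik (50.5%). A high coefficient did not always go with a group. D630023F18Rik, named after its values were seen, stood at 94.01, 37.54 and 77.39 FPKM in the 3 males, at 65.28, 58.7 and 87.85 in the sham females and at 49.27, 53.41 and 59.17 after ovariectomy. Its male libraries spanned both female groups, and it was called in no comparison (limma, adjusted p = 0.862 for sham females against males).

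Library totals were alike, with FPKM sums of 693451 to 734990, 12287 to 13115 genes at 1 FPKM or more, and 24.6% to 27.3% of the sum from mitochondrially encoded genes. Median-ratio scaling factors, however, were higher in every male library (1.016 to 1.058) than in any female library (0.966 to 1.007). Differences between the sexes therefore shift with that scaling. The 10 proximal tubule markers were present in all libraries, with a summed level of 5066 to 6051 FPKM in males, 5869 to 6798 in sham females and 6154 to 6967 in ovariectomized females. Of these 10, 5 were called higher and 0 lower in sham females than in males, and 4 higher and 0 lower in ovariectomized females than in males. Markers of 8 other kidney cell types, 37 genes in all, summed to 2308 to 3484 FPKM in males, 1195 to 2175 in sham females and 1440 to 2229 in ovariectomized females. Every male total lay above every female total. Umod (503.13 to 1480.99 FPKM) and Slc12a3 (166.93 to 619.12) weighed most in these totals. By type, male sums overlapped those of both female groups for thick ascending limb, podocyte, stromal and immune markers. Of these 37, 32 were tested, 9 were called lower and 0 higher in sham females than in males, and 4 lower and 0 higher in ovariectomized females than in males. All of these lower calls fell on thick ascending limb, distal convoluted tubule, collecting duct principal cell or intercalated cell markers. Podocyte, endothelial, stromal and immune markers had 0 calls. Only the T cell marker Cd3e was at 0 in some libraries. In bulk RNA, fewer cells of a type and less RNA per cell cannot be told apart. For this reason the total of called members in each comparison with males is also given from a fit with the marker score of these 37 genes as a covariate, which was added after the data were seen.

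The comparison of sham-operated females with sham-operated males asked which members differ between the sexes. Of the 69, 4 were called higher in females (5.80%) and 7 lower (10.1%), by limma on log2(FPKM + 1) with Benjamini-Hochberg adjusted p under 0.05. Among all 13160 genes tested, 4.28% were called higher and 4.87% lower. Among the 6226 genes with a mean of at least 10 FPKM, 6.73% were called higher and 4.98% lower. The 4 members called higher were the pseudogene 9030619P08Rik and the noncoding 0610005C13Rik, D630029K05Rik and 9130016M20Rik. The 7 lower were the coding 1700016C15Rik, 2310030G06Rik, 2510002D24Rik, 1810013L24Rik and C130074G19Rik and the noncoding 1300002E11Rik and 1810026B05Rik.

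By class, 0 of 49 coding members were called higher and 5 lower (10.2%), against 6.80% and 5.01% of all coding genes with a mean of at least 10 FPKM. Of the 17 noncoding members, 3 were called higher (17.6%) and 2 lower (11.8%), against 10.5% and 5.26% of the 95 noncoding genes at that level, which include them. The median log2 fold change was −0.07 over the members, −0.06 over all genes with a mean of at least 10 FPKM and −0.09 over all genes tested. In 64 of the 69 the change was within 0.5 on the log2 scale. The 58 members that were not called lay between −0.40 and 0.25. With the marker covariate 3 members were called, 9030619P08Rik higher and 1700016C15Rik and 2310030G06Rik lower. The 16 alternatives include this fit, and these 3 kept the call under all of them. The share of all genes called with the covariate or under the other alternatives is not given here. The smaller totals are therefore not a result about the members alone. Without male 2, male 3, sham female 2 or sham female 3, 5 members were called in each case. With median-ratio scaling the split of 4 higher and 7 lower became 6 and 5.

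Ovariectomized females were compared with the same male libraries, so the resulting values share these males with the ones above. Here 5 members were called higher and 5 lower (7.25% each), against 5.63% and 6.19% of all genes tested and 9.09% and 6.75% of those with a mean of at least 10 FPKM. The median log2 fold change was −0.08 over the members and −0.09 over all genes. In 63 of 69 it was within 0.5. With the marker covariate 5 members were called, 9030619P08Rik, D630029K05Rik and 9130016M20Rik higher and 1700016C15Rik and 2310030G06Rik lower. These 5 kept the call under all 16 alternatives, which include this fit. Again the share of all genes called under each alternative is not given here. Without ovariectomized female 2 the total was 6. In all, 13 members were called against males in at least 1 of the 2 female groups, 8 of them in both and in the same direction. The share of all genes called in both was not computed. Because the 2 comparisons share the male libraries, agreement between them is not independent.

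The comparison of ovariectomized with sham-operated females asked which members differ with loss of the ovaries. No member was called. By limma with the adjustment over all 13160 genes, 0 genes were called higher and 1 lower (0.00760% of those tested and 0.0161% of those with a mean of at least 10 FPKM). At an unadjusted p under 0.05 there were 8 members (11.6%), against 6.29% of all genes tested and 7.71% of those with a mean of at least 10 FPKM. Libraries of the 2 groups did not overlap for 10 members that were above in the ovariectomized females (14.5%, against 6.76% of all genes and 9.54% of those with a mean of at least 10 FPKM) and for 2 that were below (2.90%, against 6.09% and 6.79%). Log2 fold changes ran from −0.59 to 0.48, with a median of −0.01, and 68 of 69 were within 0.5. The median width of a member's 95% interval was 0.46 on the log2 scale, and small changes were not detectable with 3 libraries a group.

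**Figure D2:**
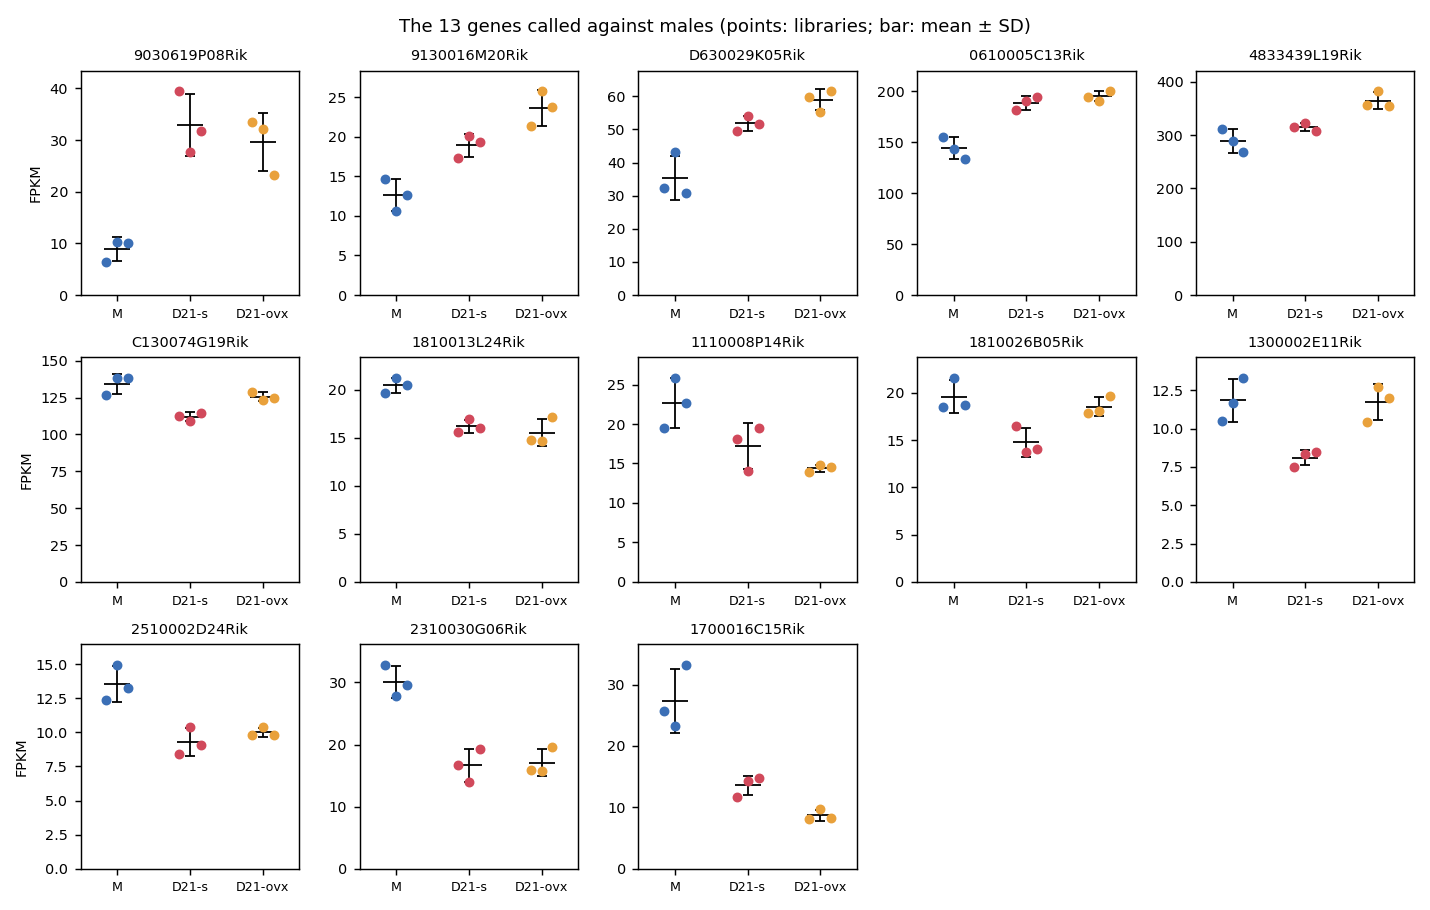
FPKM of the 13 called genes in each library, with the mean ± SD (n = 3) of sham males (M), sham females (D21-s) and ovariectomized females (D21-ovx), each panel on its own axis from 0. The males lie clear of both female groups for 9030619P08Rik (all 3 at or below 10.3 FPKM) and for 2310030G06Rik (all 3 at or above 27.8 FPKM).

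9030619P08Rik had the largest difference between the sexes. GENCODE classes it as a transcribed unprocessed pseudogene on chr15:75427606-75431829, minus strand, with 4 exons. It stood at 6.33, 10.32 and 10.15 FPKM in males, at 39.48, 27.59 and 31.78 in sham females and at 33.44, 32.22 and 23.21 after ovariectomy. Every female library lay above every male library and the 2 female groups overlapped. Sham females had 3.69 times the male mean (log2 fold change 1.79 ± 0.21 SE, limma adjusted p = 0.000775). Ovariectomized females had 3.32 times the male mean (1.63 ± 0.21, limma adjusted p = 0.00102). Ovariectomized and sham females differed by −0.15 (95% interval −0.62 to 0.31). An unprocessed pseudogene is a copy of a gene, so reads shared with a near-identical copy could be divided between them, and its level is uncertain to that extent. The nearest tested genes, Ly6g2 at 204944 bases and Gpihbp1 at 164798 bases, were called in no comparison with males.

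A pair of members whose human counterparts are microtubule inner proteins, 1700016C15Rik and 2310030G06Rik, were higher in males. The first corresponds to a protein of the sperm flagellum, SPMIP3 in human, and lies on chr1:177729814-177753324, plus strand. It stood at 25.68, 23.2 and 33.23 FPKM in males, at 11.75, 14.22 and 14.75 in sham females and at 8.05, 9.78 and 8.26 in ovariectomized females. The 3 groups did not overlap, with males highest and ovariectomized females lowest. Sham females had 0.496 times the male mean (log2 fold change −0.95 ± 0.14 SE, limma adjusted p = 0.00349). Ovariectomized females had 0.318 times the male mean (−1.54 ± 0.14, limma adjusted p = 0.000162). Ovariectomized females were at 0.641 times the sham females, a difference of −0.59 with a 95% interval of −0.90 to −0.27, which did not pass the adjustment over all genes (limma adjusted p = 0.330). That was the lowest log2 fold change of any member in this comparison.

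2310030G06Rik corresponds to the ciliary microtubule inner protein CFAP68 in human and lies on chr9:50739691-50746536, minus strand. It stood at 32.84, 27.82 and 29.52 FPKM in males, at 16.78, 13.98 and 19.2 in sham females and at 15.9, 15.8 and 19.55 in ovariectomized females. All males lay above all females, and the 2 female groups overlapped. The mean of sham females was 0.554 times that of males (log2 fold change −0.82 ± 0.13 SE, limma adjusted p = 0.00424), and that of ovariectomized females 0.568 times (−0.78 ± 0.13, limma adjusted p = 0.00431). The difference between the female groups was 0.04 (95% interval −0.25 to 0.32). The summed level of the markers of other cell types was also higher in the males. With their score as a covariate, 1700016C15Rik and 2310030G06Rik were still called lower in both female groups. That score was higher in every male library (0.261 to 0.698) than in any female library (at most 0.149). This fit therefore cannot separate sex from cell content, and cell content as a cause was not tested.

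Iftap (B230118H07Rik), also tied to cilia, stood at 33.0 ± 2.95 FPKM in males, 35.5 ± 2.01 in sham females and 34.7 ± 0.623 after ovariectomy (SD, n = 3). It was not called, with a log2 fold change of 0.10 for sham females against males (95% interval −0.07 to 0.28). 1110032A03Rik, which lies 16291 bases from 2310030G06Rik on the same strand, was also not called (−0.09, 95% interval −0.26 to 0.08).

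**Figure D3:**
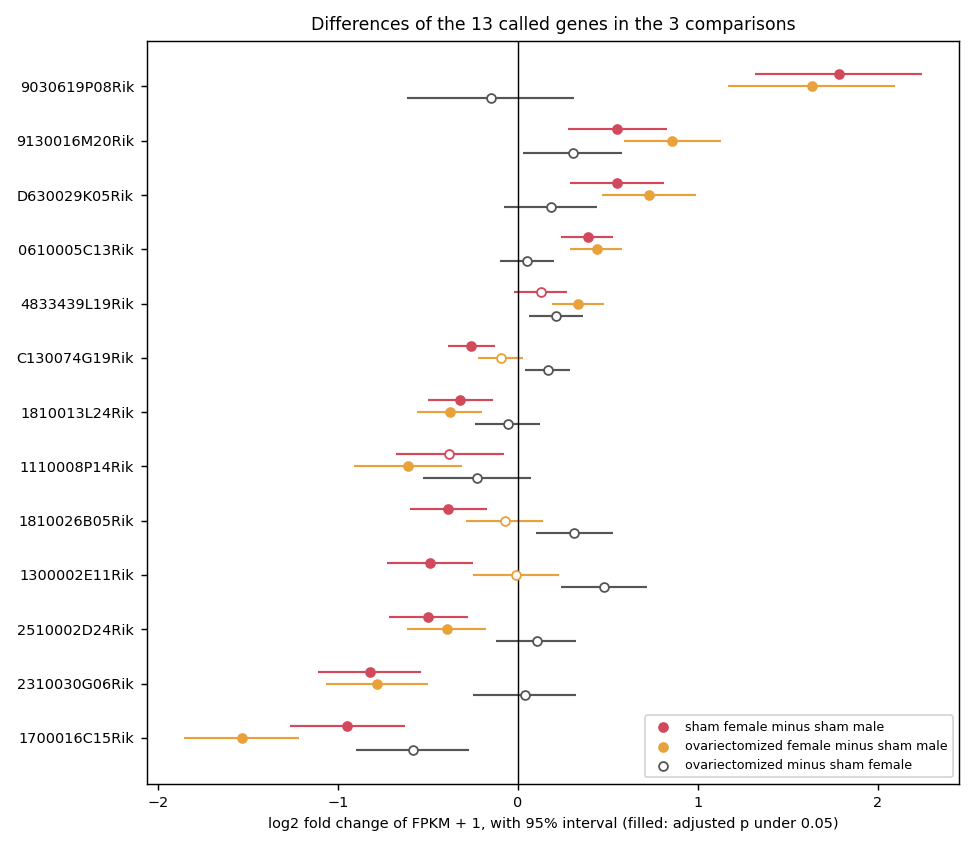
Log2 fold change of FPKM + 1 with its 95% interval for the 13 called genes in the 3 comparisons, filled where the adjusted p was under 0.05. No gene was called between the female groups (open grey circles), where values ran from −0.59 for 1700016C15Rik to 0.48 for 1300002E11Rik.

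Among the noncoding members, 3 were higher in females. 0610005C13Rik is a gene antisense to Bcat2 on chr7:45567794-45575327, minus strand. It stood at 155.13, 143.54 and 133.57 FPKM in males, at 181.34, 190.23 and 194.45 in sham females and at 194.43, 190.87 and 200.25 after ovariectomy. All females lay above all males, and the female groups overlapped. Sham females had 1.31 times the male mean (log2 fold change 0.39 ± 0.07 SE, limma adjusted p = 0.00653) and ovariectomized females 1.35 times (0.44 ± 0.07, limma adjusted p = 0.00269). Among the alternatives only the marker covariate ended these calls, at log2 fold changes of 0.32 (adjusted p = 0.187) and 0.38 (0.0528). Bcat2 encodes the mitochondrial branched-chain aminotransferase and overlaps it on the other strand. Its level was 53.8 ± 7.20 FPKM in males and 45.7 ± 7.76 in sham females (SD, n = 3), and it was not called (log2 fold change −0.24, limma adjusted p = 0.307). The library kit keeps strand, but the strand setting of the counting is not given in the sources used here, so reads of the 2 genes may not be fully separated.

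D630029K05Rik is a long intergenic noncoding RNA on chr10:116964707-116969105, plus strand. It stood at 32.33, 43.08 and 30.95 FPKM in males, at 49.67, 54.03 and 51.7 in sham females and at 59.9, 55.35 and 61.59 after ovariectomy. The 3 groups did not overlap, with males lowest and ovariectomized females highest. Sham females had 1.46 times the male mean (log2 fold change 0.55 ± 0.12 SE, limma adjusted p = 0.0194), a call lost without male 3 (adjusted p = 0.0689), sham female 2 (0.0768) or sham female 3 (0.0552). With the marker covariate it was also lost, at a log2 fold change of 0.66 (adjusted p = 0.121). It was lost as well without the filter on low values (0.0528) and with only the 6 libraries compared (0.0563). Ovariectomized females had 1.66 times the male mean (0.73 ± 0.12, limma adjusted p = 0.00370). Between the female groups the difference was 0.18 (95% interval −0.08 to 0.44). Its neighbour 4933412E12Rik, 1427 bases away on the same strand and far lower, had 2.36 FPKM in males, 2.64 in sham females and 3.91 after ovariectomy. The neighbour was called higher in ovariectomized females than in males (log2 fold change 0.56, limma adjusted p = 0.0380), a call lost in 10 of 16 alternatives. Among these were fits without male 1 (0.0825), male 3 (0.116), sham female 1 (0.0530), sham female 2 (0.0566) and each of the ovariectomized females (0.0611, 0.128 and 0.0939).

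9130016M20Rik, named AC117816.1 in GENCODE M21 and listed by RefSeq as a synonym of A1cf, has 1 exon on chr19:31950084-31952361, plus strand. It stood at 14.71, 10.56 and 12.66 FPKM in males, at 17.27, 20.07 and 19.36 in sham females and at 21.32, 25.77 and 23.77 after ovariectomy. Again the groups did not overlap, with males lowest and ovariectomized females highest. A1cf, an RNA-binding partner of the apolipoprotein B mRNA editing enzyme, ends 1088 bases upstream on the same strand. A1cf stood at 16.08, 11.48 and 12.85 FPKM in males, at 18.56, 21.25 and 21.94 in sham females and at 23.62, 30.34 and 25.12 after ovariectomy. The order of groups was thus the same in both entries, and male 2 was the lowest library and ovariectomized female 2 the highest for each. Given the shared RefSeq name, the strand and the short distance, the 2 entries may not be independent. Whether they belong to 1 transcript was not tested.

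The log2 fold changes of this pair were alike. Sham females exceeded males by 0.55 ± 0.12 SE in 9130016M20Rik (limma adjusted p = 0.0235) and by 0.59 in A1cf (limma adjusted p = 0.0281). Ovariectomized females exceeded males by 0.86 ± 0.12 (limma adjusted p = 0.00200) and by 0.92 (limma adjusted p = 0.00237), and these calls held under all 16 alternatives. The difference between the female groups was 0.31 in 9130016M20Rik (95% interval 0.03 to 0.58, limma adjusted p = 0.742). The 2 calls of sham females against males were lost under 8 alternatives each. Without male 2, male 3, sham female 2 or sham female 3 the adjusted p was 0.0689, 0.0711, 0.0902 and 0.0722 for 9130016M20Rik and 0.0950, 0.0929, 0.0975 and 0.0878 for A1cf. With the marker covariate it was 0.522 and 0.576, with a log2 fold change of 0.26 in 9130016M20Rik.

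The noncoding 1300002E11Rik and Chaserr were lower in sham females than in males and were not called between ovariectomized females and males. 1300002E11Rik lies on chr16:21794318-21809040, plus strand, with 5 exons. It stood at 10.52, 11.68 and 13.3 FPKM in males, at 7.52, 8.35 and 8.44 in sham females and at 10.43, 12.73 and 11.96 after ovariectomy. The sham females lay below all other libraries, and males and ovariectomized females overlapped. Sham females had 0.685 times the male mean (log2 fold change −0.49 ± 0.11 SE, limma adjusted p = 0.0226). This call was lost without male 2 (adjusted p = 0.0682), male 3 (0.0794), sham female 1 (0.0580), sham female 2 (0.0650) or sham female 3 (0.0503). With the marker covariate it was lost at a log2 fold change of −0.63 (0.0916), and also without the filter on low values (0.0526). After ovariectomy the level was 1.45 times that of sham females, a difference of 0.48 with a 95% interval of 0.24 to 0.72. This was the highest log2 fold change of any member in that comparison and did not pass the adjustment (limma adjusted p = 0.262). Ovariectomized females and males differed by −0.01 (95% interval −0.25 to 0.23).

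The nearest tested gene beside 1300002E11Rik is Ehhadh, 6510 bases away on the opposite strand, which encodes an enzyme of peroxisomal fatty acid oxidation. Ehhadh stood at 83.85, 121.36 and 136.15 FPKM in males, at 207.96, 231.37 and 200.43 in sham females and at 171.55, 234.97 and 228.42 after ovariectomy. Its males were lowest and its female groups overlapped, an order unlike that of 1300002E11Rik. It was called higher in sham females (log2 fold change 0.93, limma adjusted p = 0.0133) and in ovariectomized females (0.90, limma adjusted p = 0.0117). The first call was lost without sham female 2 (0.0599), the second without ovariectomized female 2 (0.0521) or 3 (0.0504), and both with the marker covariate (0.194 and 0.109). Map3k13, a kinase gene that overlaps 1300002E11Rik on the same strand and starts 28 bases from it, was called in no comparison.

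Chaserr (1810026B05Rik) lies on chr7:73539203-73558395, minus strand. It stood at 18.46, 21.57 and 18.69 FPKM in males, at 16.51, 13.72 and 14.02 in sham females and at 17.89, 18.02 and 19.68 after ovariectomy. Sham females again lay below all other libraries. They had 0.754 times the male mean (log2 fold change −0.39 ± 0.09 SE, limma adjusted p = 0.0352). The call was lost in 12 of 16 alternatives, including fits without male 2 (0.120), male 3 (0.0771), sham female 2 (0.125), sham female 3 (0.109) and each of the ovariectomized females (0.0545, 0.0506 and 0.0523), and the fit with the marker covariate (log2 fold change −0.23, adjusted p = 0.558). The difference between ovariectomized and sham females was 0.31 (95% interval 0.10 to 0.53, limma adjusted p = 0.549). Chd2, whose gene overlaps Chaserr on the same strand, stood at 10.2 ± 0.758 FPKM in males, 10.7 ± 0.547 in sham females and 10.7 ± 1.31 after ovariectomy (SD, n = 3). It was not called (log2 fold change 0.06 for sham females against males, 95% interval −0.16 to 0.28).

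**Figure D4:**
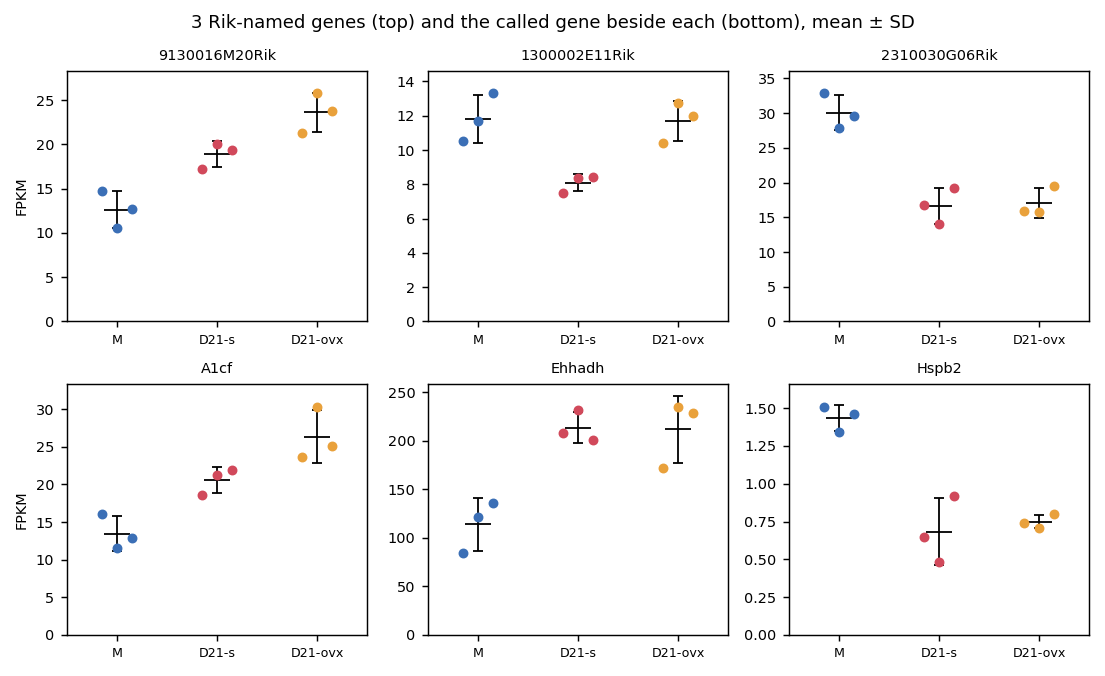
FPKM by library with the mean ± SD (n = 3) for 9130016M20Rik, 1300002E11Rik and 2310030G06Rik (top) and for the gene beside each that was called in sham females against males (bottom), with every axis from 0. The group means of 9130016M20Rik and A1cf are ordered males, sham females, ovariectomized females, whereas Ehhadh is lowest in males (83.9 to 136 FPKM) and 1300002E11Rik lowest in sham females (7.52 to 8.44 FPKM).

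Of the 13 called members, 3 had a neighbouring or overlapping tested gene that was called in sham females against males, namely A1cf, Ehhadh and Hspb2. These were 3 of 32 tested neighbours (9.38%), close to the 9.15% of all genes tested that were called in that comparison. A1cf may not be independent of 9130016M20Rik. Hspb2 encodes a small heat shock protein and lies 4541 bases from 2310030G06Rik on the same strand. It was near 1 FPKM throughout, at 1.51, 1.34 and 1.46 in males, 0.65, 0.48 and 0.92 in sham females and 0.74, 0.71 and 0.8 after ovariectomy. The difference of sham females from males (log2 fold change −0.54, limma adjusted p = 0.0375) was lost in 13 of 16 alternatives, where the adjusted p reached 0.177. Those included fits without male 1 (0.0665), male 2 (0.0879), male 3 (0.111), sham female 1 (0.0799), sham female 2 (0.133) and each of the ovariectomized females (0.0578, 0.0539 and 0.0602). Dixdc1, 173 bases from the other end of 2310030G06Rik, was not called. A tested gene started within 1000 bases in the opposite direction for 17 of the 69 members, a head-to-head arrangement. None of these 17 partner genes was called in sham females against males, where 9.15% of all genes tested were, and so small a number says little.

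Among the coding members, 2510002D24Rik, whose human counterpart C22orf39 encodes a synaptic microprotein, lies on chr16:18836578-18840160, plus strand. It stood at 12.39, 14.95 and 13.25 FPKM in males, at 8.4, 10.39 and 9.06 in sham females and at 9.82, 10.4 and 9.83 after ovariectomy. All males lay above all females, whose 6 libraries averaged 9.65 FPKM, so this gene reached the bound of 10 FPKM through the males. Sham females had 0.686 times the male mean (log2 fold change −0.50 ± 0.10 SE, limma adjusted p = 0.0145), a call lost without male 2 (0.0558) and with the marker covariate (log2 fold change −0.51, adjusted p = 0.176). Ovariectomized females had 0.740 times the male mean (−0.40 ± 0.10, limma adjusted p = 0.0319). That call was lost without male 2 (0.104), male 3 (0.0783) or any 1 of the ovariectomized females (0.0827, 0.0712 and 0.0946). It was also lost without the filter on low values (0.0616), with median-ratio scaling (0.0724) and with the marker covariate (log2 fold change −0.41, adjusted p = 0.175).

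1810013L24Rik corresponds to HAPSTR1 in human, a regulator of stress responses, and lies on chr16:8830100-8858922, plus strand. It stood at 19.67, 21.22 and 20.49 FPKM in males, at 15.59, 16.96 and 16 in sham females and at 14.79, 14.62 and 17.19 after ovariectomy. All males lay above all females, and the female groups overlapped. The mean was 0.791 times that of males in sham females (log2 fold change −0.32 ± 0.08 SE, limma adjusted p = 0.0386) and 0.759 times in ovariectomized females (−0.38 ± 0.08, limma adjusted p = 0.0165). The first call was lost in 11 of 16 alternatives. Among these were fits without male 2 (0.125), male 3 (0.110), any 1 of the sham females (0.0932, 0.0779 and 0.106) or ovariectomized female 1 (0.0550). Others were median-ratio scaling (0.0968), no filter on low values (0.0657), only the 6 libraries compared (0.0566) and the replicate block (0.0540). The second call was lost without male 2 (0.0591), male 3 (0.0537), ovariectomized female 1 (0.0590) or ovariectomized female 2 (0.0645). With the marker covariate the log2 fold changes were −0.33 (adjusted p = 0.328) and −0.38 (0.122).

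C130074G19Rik corresponds to human C1orf115, a protein linked to drug export, and lies on chr1:184871926-184883218, minus strand. It stood at 126.68, 138.02 and 138.29 FPKM in males, at 112.35, 108.77 and 114.65 in sham females and at 128.73, 123.35 and 124.73 after ovariectomy. Sham females lay below all other libraries, and males and ovariectomized females overlapped. The difference of sham females from males was small, at 0.833 times (log2 fold change −0.26 ± 0.06 SE, limma adjusted p = 0.0221). The call was lost without male 2 (0.0798), male 3 (0.0783) or any 1 of the sham females (0.0505, 0.0863 and 0.05002). It was also lost with only the 6 libraries compared (0.0660) and with the marker covariate (log2 fold change −0.22, adjusted p = 0.337). Ovariectomized females exceeded sham females by 0.17 (95% interval 0.04 to 0.29, limma adjusted p = 0.602) and differed from males by −0.09 (95% interval −0.22 to 0.03).

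The remaining 2 called members passed in ovariectomized females against males but not in sham females against males. 4833439L19Rik, on chr13:54551218-54565435, minus strand, stood at 311.59, 289.32 and 267.6 FPKM in males, at 315.69, 323.18 and 307.27 in sham females and at 357.28, 382.94 and 354.48 after ovariectomy. Ovariectomized females lay above all other libraries, and males and sham females overlapped. The ratio to males was 1.26 after ovariectomy (log2 fold change 0.33 ± 0.07 SE, limma adjusted p = 0.0119) and 1.09 in sham females (0.13, limma adjusted p = 0.257). The call was lost without ovariectomized female 2 (0.0525) and with the marker covariate (log2 fold change 0.30, adjusted p = 0.129).

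1110008P14Rik, bublin coiled-coil protein (BBLN) in human, with 83 residues, lies on chr2:32377097-32381938, minus strand. It stood at 19.46, 25.84 and 22.69 FPKM in males, at 18.1, 13.99 and 19.53 in sham females and at 13.92, 14.8 and 14.52 after ovariectomy. Ovariectomized females lay below all males, and sham females overlapped both groups. Ovariectomized females had 0.636 times the male mean (log2 fold change −0.61 ± 0.13 SE, limma adjusted p = 0.0183). The call was lost without male 2 (0.0628), male 3 (0.0592) or any 1 of the ovariectomized females (0.0585, 0.0534 and 0.0574), and with the marker covariate (log2 fold change −0.58, adjusted p = 0.149). For sham females the difference from males was −0.38 (limma adjusted p = 0.105). For both genes the difference between the female groups did not pass (limma adjusted p = 0.555 for 4833439L19Rik and 0.913 for 1110008P14Rik).

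Among the uncalled members with the smallest p in each direction, C030006K11Rik had 21.1 ± 0.615 FPKM in males, 25.2 ± 1.24 in sham females and 22.1 ± 1.61 after ovariectomy (SD, n = 3). Its log2 fold change for sham females against males was 0.25 (limma adjusted p = 0.0688), and with median-ratio scaling it passed at 0.0289. 9530068E07Rik, at 0.15 (limma adjusted p = 0.151), also passed under that scaling at 0.0489. 4931406C07Rik had 343 ± 13.1 FPKM in males and 295.6 ± 10.0 in sham females (log2 fold change −0.21, limma adjusted p = 0.0862). 2310022B05Rik stood at −0.32 (limma adjusted p = 0.0907). In ovariectomized females against males, the pseudogene 6820431F20Rik stood at −0.30 (limma adjusted p = 0.0582), 1700037H04Rik at −0.32 (0.0779) and A430005L14Rik at 0.21 (0.218). Norad (2900097C17Rik) varied little, at 39.8 ± 2.15 FPKM in males, 35.2 ± 0.733 in sham females and 36.8 ± 0.594 after ovariectomy. Its log2 fold change for sham females against males was −0.17 (95% interval −0.31 to −0.04, limma adjusted p = 0.110).

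Several members encode micropeptides or lipid transfer proteins, and those below were named after their values were seen. They are not all of the members with short proteins. Of those described above, 2510002D24Rik (105 residues) was called lower than in males in both female groups. 1110008P14Rik (83 residues) was called lower in ovariectomized females. 1810058I24Rik, which GENCODE lists as noncoding and which encodes the mitochondrial micropeptide mitolamban, stood at 52.7 ± 3.39 FPKM in males, 49.3 ± 3.73 in sham females and 48.7 ± 6.22 after ovariectomy (SD, n = 3). 1190007I07Rik, the respiratory complex III assembly peptide BRAWNIN, had 11.9 ± 0.959, 12.3 ± 1.96 and 13.6 ± 0.529 FPKM in the same order. 1810037I17Rik, a small inhibitor of the calcium pump SERCA, had 26.4 ± 3.99, 22.1 ± 1.03 and 21.8 ± 2.83 FPKM. None of the 3 was called in any comparison, and their log2 fold changes for sham females against males were −0.09 (95% interval −0.32 to 0.13), 0.03 (−0.22 to 0.29) and −0.24 (−0.52 to 0.05). The lipid transfer genes 2610507B11Rik and 4932438A13Rik were likewise uncalled, at 0.10 (−0.08 to 0.28) and −0.07 (−0.36 to 0.22). For context, 0 of 12 tested genes of the mitochondrial cristae organising system and 0 of 17 of the ATP synthase were called in sham females against males, where 9.15% of all tested genes were called.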

How the data were processed

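RNA from prominin-1-positive kidney cortex cells was sequenced in 9 libraries. The authors deposited FPKM per gene and library with no read counts, so depth is not given and no counting interval was computed. STAR 2.6.0c and RSEM are listed in the submitters' processing notes. Not given in the sources used here are the RSEM version, the build and the annotation. Of 4 unnamed side columns in the table, 3 hold numbers, and none was used.

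Genes with at least 1 FPKM in at least 3 libraries were tested, 13160 in all. log2(FPKM + 1) was fitted with limma 3.58.1 in R 4.3.3, with 1 mean per group, all 9 libraries and a trended empirical Bayes variance. Fold changes are on this scale, which understates changes of low genes, and ratios are of mean FPKM. Tests were two-sided with Benjamini-Hochberg adjustment over all genes tested, called at an adjusted p under 0.05. The fit was tested on simulated data. Any 2 libraries of a group differed in at least 13073 tested genes.

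Members and lists were chosen with earlier results of these data known. Named are members called in any comparison, the 6 with the highest mean, 3 on each side of the bound of 10 FPKM, the 2 uncalled with the smallest p in each direction, and members renamed in the reference table. Of the 32 tested genes beside called members only some are named, including each that was called. Same-numbered libraries of the sham and ovariectomized females deviated together from their group means, with correlations of 0.35, 0.17 and 0.29 over genes. The block changed no call between them. Positions came from GENCODE M21 (GRCm38) by gene ID, and promoters and symbols from RefSeq (GRCm38.p6). Alternatives were a pseudocount of 0.1, no filter, median-ratio scaling, scaling to the sum without mitochondrial genes, only the 6 libraries compared, a replicate block, leaving out each library, and, added after seeing the data, the marker score of other cell types as covariate. Annotation joins and figures used pandas 2.3.3 and numpy 2.4.6, with plots by matplotlib 3.10.9 under Python 3.11.15.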

Additional observations from a re-analysis of the deposited data

How the results depend on the processing

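Of the 11 members called in sham females against males, 3 kept the call under all 16 alternatives, and of the 10 in ovariectomized females against males, 5 did. In the first comparison the count was 6 without a filter on low values, 6 with only the 6 libraries compared, and 3 with the marker covariate. Without single libraries it ran from 5 to 11, and it was 5 without male 2, male 3, sham female 2 or sham female 3. In the second comparison it was 5 with the marker covariate and 6 to 11 without single libraries, lowest without ovariectomized female 2. No alternative called a member between the female groups, where the count at an unadjusted p under 0.05 was 8. The share of all genes called under each alternative is not given here, so these counts have no background to be read against. The cause of these shifts was not tested.

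With the replicate block, 8 members were called in sham females against males, 11 in ovariectomized females against males and 0 between the female groups. In sham females against males it ended the calls of 9130016M20Rik (adjusted p = 0.0502), 1810026B05Rik (0.0647) and 1810013L24Rik (0.0540). Correlations of same-numbered libraries were -0.13, 0.14 and 0.28 for males and sham females and -0.03, 0.02 and 0.07 for males and ovariectomized females. In these comparisons 3 of 6 and 0 of 6 libraries correlated best with their own number, so the numbers do not clearly pair males with females. Between the female groups 6 of 6 did, and the main fit did not use this pairing.

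Signs turned only for uncalled differences near 0. Between the female groups, log2 fold changes without 1 library ran from -0.268 to 0.01 (9030619P08Rik), -0.074 to 0.142 (2310030G06Rik), -0.004 to 0.112 (4931406C07Rik), -0.031 to 0.028 (9530068E07Rik), -0.069 to 0.047 (2610507B11Rik), -0.025 to 0.144 (2310022B05Rik), -0.024 to 0.135 (A430005L14Rik), -0.106 to 0.002 (6820431F20Rik) and -0.058 to 0.015 (B230118H07Rik). In ovariectomized females against males, 1810026B05Rik turned to 0.002 with median-ratio scaling and 0.063 with the marker covariate, and 1300002E11Rik to 0.06 with that scaling and ran from -0.088 to 0.068 without 1 library. With the fits without 1 library reduced to their lowest and highest value for each result, 562 values of named genes kept direction and call, 41 lost the call, 5 gained it and 13 changed sign. 6820431F20Rik passed in ovariectomized females against males when scaled to the sum without mitochondrial genes (adjusted p = 0.0491) and with the block (0.0454).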

Other observations

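Of the Rik-named genes below the mean of 10 FPKM, 292 were tested. Sham females were called higher than males in 5 (1.71%) and below them in 8 (2.74%), against 4.28% and 4.87% of all genes tested. For ovariectomized females against males the counts were 8 (2.74%) and 11 (3.77%), against 5.63% and 6.19%, by limma with the adjustment over all genes. These counts were not recomputed with the marker covariate. None was called between the female groups. The noncoding 2310015A16Rik, chosen after its values were seen, was the only one called in sham females against males with a log2 fold change of at least 1 in either direction. It stood at 0.06, 0.97 and 0.12 FPKM in males, at 4.11, 3.3 and 3.14 in sham females and at 4.39, 6.43 and 4.1 after ovariectomy. Every female library lay above every male library (log2 fold change 1.76 for sham females against males, limma adjusted p = 0.00249).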
